A study of Mus musculus with 11 samples.

Results

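Imprinted genes are expressed mainly from the chromosome inherited from 1 parent, and 40 of them were followed through 11 RNA-seq libraries of mouse liver cancer cell lines. The 40 genes are known imprinted genes of the mouse, taken as a named list and not by their level in these libraries, out of 36528 gene IDs in the tables. All 40 were found by their Entrez ID, and 36 passed the low-count filter and were tested. Dlk1, Rtl1, Magel2 and Zdbf2 did not pass it and are described by their counts.

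The lines came from liver tumours with TAZ-S89A (5 libraries), YAP-5SA (3 libraries, spelled YAP-S5A in the sample labels) or YAP-S127A (3 libraries). YAP and TAZ are coactivators that the Hippo pathway kinases hold back by phosphorylating serines, and each mutant carries alanine in place of such serines. The labels give neither the vector or promoter of the mutants nor the strain or age of the mice. They also leave unsaid whether a group's libraries are different tumours, different lines or repeat cultures of 1 line, so the p-values speak only of spread among libraries, possibly technical, and mutant and line cannot be told apart. No mutation-free group was analysed here.

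Imprinted genes lie in clusters, each under a control region whose DNA is methylated on the copy from 1 parent only. Zinc finger proteins of the ZFP57 type keep that methylation in place after fertilisation, and a cluster often pairs protein genes with a long non-coding RNA that silences neighbours on the same chromosome. Many imprinted genes, among them Igf2, H19, Dlk1 and Meg3, are active in fetal liver and fall silent after birth, and their return in liver tumours is well known. The counts do not separate the parental chromosomes, so a difference below is one of total RNA. In bulk RNA, fewer cells of a kind and less RNA per cell cannot be told apart.

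Total counts ran from 20071144 to 49159713 per library, and imprinted genes held 0.0646 to 0.101% of them in TAZ-S89A, 0.09997 to 0.110% in YAP-5SA and 0.143 to 0.160% in YAP-S127A. In TAZ-S89A the share was 0.0646 to 0.0698% in replicates 1 to 3 and 0.0991 to 0.101% in replicates 4 and 5. Gnas alone held 15215 of the 26227 imprinted-gene counts in TAZ-S89A replicate 1 and 25011 of 42051 in YAP-5SA replicate 1. In YAP-S127A replicate 1, Gnas held 18953 and Peg3 20866 of 73934. Every pair of libraries within a group differed by more than sampling noise, but some pairs lay close together. The chi-square per degree of freedom was 5.63 for TAZ-S89A replicates 1 and 2 and 2.01 for replicates 4 and 5, against 101 to 218 for the other TAZ-S89A pairs. In YAP-S127A it was 6.34 for replicates 1 and 2, 15.6 for 2 and 3 and 33.1 for 1 and 3. YAP-5SA pairs ran from 15.6 to 131.5. Of 9 hepatocyte markers, 8 stood under 1 CPM (reads per gene relative to the library's total, which is adjusted for composition) in TAZ-S89A and 7 in each YAP group. Albumin (Alb), the defining hepatocyte transcript, averaged 0.00446, 0.0678 and 0.988 CPM in TAZ-S89A, YAP-5SA and YAP-S127A, while the fetal liver transcript Afp stood at 54.6, 38.0 and 40.5 CPM. Summed markers of stellate cells and fibroblasts ran from 1782 to 3392 CPM in TAZ-S89A, from 276 to 375 CPM in YAP-5SA and from 5333 to 5899 CPM in YAP-S127A. Most of that sum was the collagen transcript Col1a2 in TAZ-S89A (mean 2219 CPM) and Col1a1 in YAP-5SA (322 CPM), while in YAP-S127A both were abundant (2273 and 2949 CPM). Summed biliary markers ran from 1703 to 3612, from 2693 to 4252 and from 448 to 574 CPM. These sums too rest on different genes, since Spp1 averaged 2736, 202.5 and 326 CPM in TAZ-S89A, YAP-5SA and YAP-S127A, against 7.38, 1371 and 55.9 CPM for Krt19 and 1.41, 1743 and 102 CPM for Krt7. The groups thus differed in cell type markers as well as in imprinted genes, and the part of the markers in the results below was not tested. Unless another unit is named, values are CPM, given as mean ± SD over 5 TAZ-S89A or 3 YAP libraries. Log2 fold changes carry a standard error (SE) and an adjusted p by Benjamini-Hochberg from edgeR's quasi-likelihood test.

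The groups differed in how many imprinted genes they transcribed, with the fewest in TAZ-S89A and the most in YAP-S127A. Of the 40 genes, 19 stood at 1 CPM or more in TAZ-S89A, 22 in YAP-5SA and 31 in YAP-S127A. Under 0.1 CPM stood 13, 10 and 2 genes. The median level per length over the 40 genes was 0.164 nRPKM in TAZ-S89A, 0.301 in YAP-5SA and 1.93 in YAP-S127A, where nRPKM is the authors' length-corrected and depth-corrected read count. Over all tested genes that median was 3.95, 4.13 and 4.17 nRPKM, so it was similar in the groups. TAZ-S89A had the highest mean for 4 of the 36 tested genes, YAP-5SA for 10 and YAP-S127A for 22. TAZ-S89A had the lowest mean for 21, YAP-5SA for 12 and YAP-S127A for 3.

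**Figure D1:**
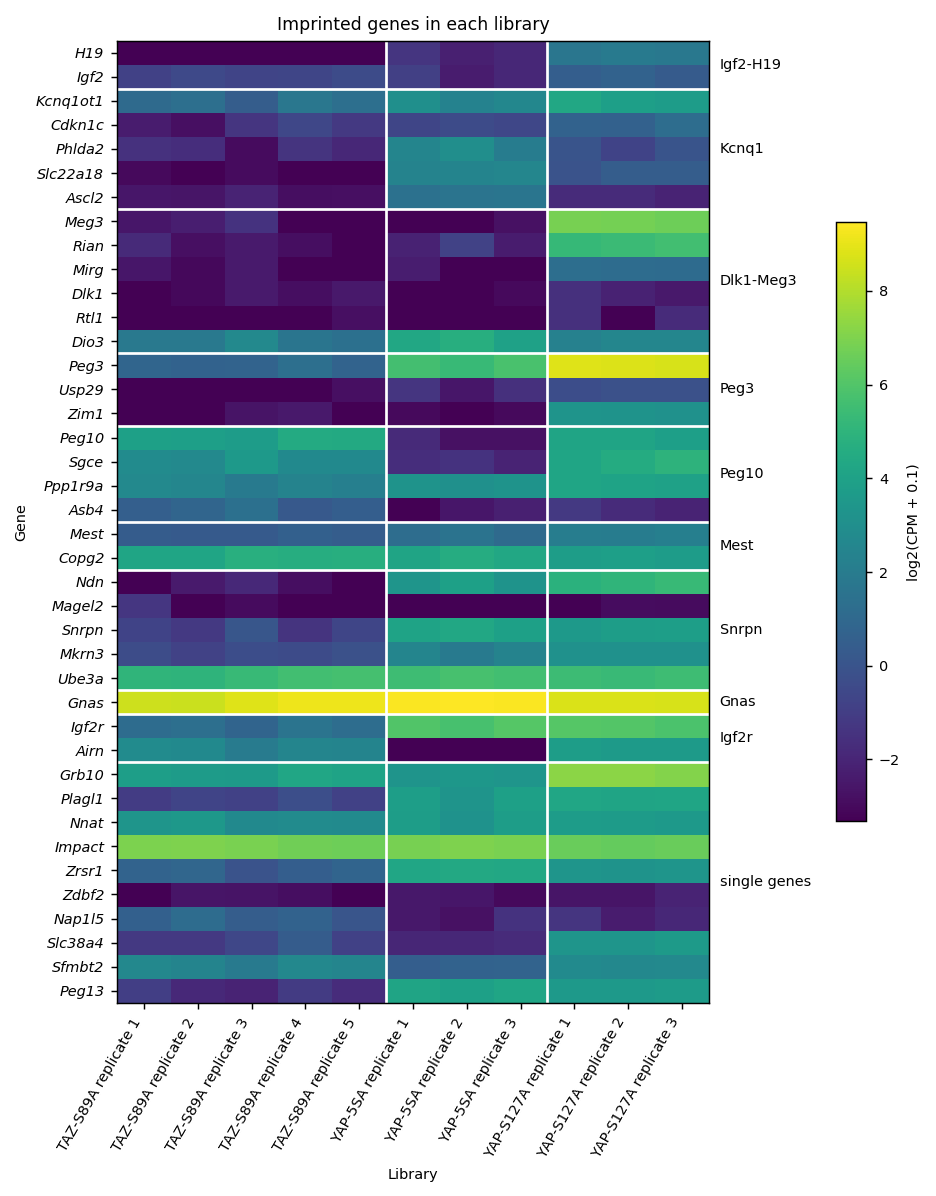
Level of the 40 imprinted genes in the 11 libraries, as log2(CPM + 0.1), with genes down the page by domain and libraries across. Dark cells are genes near 0. Meg3, Rian and Mirg are dark in TAZ-S89A and YAP-5SA and bright in YAP-S127A, and Peg10 and Sgce are dark in YAP-5SA alone.

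Of the 36 tested genes, 29 were called in TAZ-S89A against YAP-5SA at an adjusted p under 0.05, with 9 higher and 20 lower in TAZ-S89A. Over all genes, 57.9% were called in that comparison, 26.9% higher and 31% lower. In TAZ-S89A against YAP-S127A, 31 were called, 4 higher and 27 lower, where 57.6% of all genes were called, 27% higher and 30.6% lower. In YAP-5SA against YAP-S127A, 31 were called, 9 higher and 22 lower, against 55.2% of all genes, 28.2% higher and 27% lower. Without YAP-S127A replicate 3, 5 were higher in place of 9. Most genes passed the threshold in each comparison, so a call alone sets an imprinted gene little apart. Large fold changes were more frequent than over all tested genes. Absolute log2 fold changes of at least 2 were found for 20, 21 and 16 of the 36 genes in the comparisons in that order. The shares over all tested genes were 17.3%, 17% and 17.1%, not matched for level, and imprinted genes had the lower median level. Genes near 0 in some groups, such as Meg3, Zim1 and Slc22a18, were tested because of their counts in the others, which favours large fold changes. The 20 include Meg3, which was not called (adjusted p = 0.073). The part of level and filter in these shares was not tested.

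The median log2 fold change over the 36 genes was -0.90 in TAZ-S89A against YAP-5SA, -2.80 in TAZ-S89A against YAP-S127A and -1.12 in YAP-5SA against YAP-S127A. Over all tested genes it was -0.04, -0.03 and 0.01. Setting genes that had no counts in a group at their bound left the medians of the imprinted genes at -0.90, -2.80 and -1.12. The comparisons share groups and are not independent. In all, 21 genes were called in all 3 comparisons, 14 in 2 of them, and 1, Ube3a, in none. Other handling of the TAZ-S89A libraries called Ube3a, as given with its values. This tally was not made over all tested genes, so it does not set imprinted genes apart from others.

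**Figure D2:**
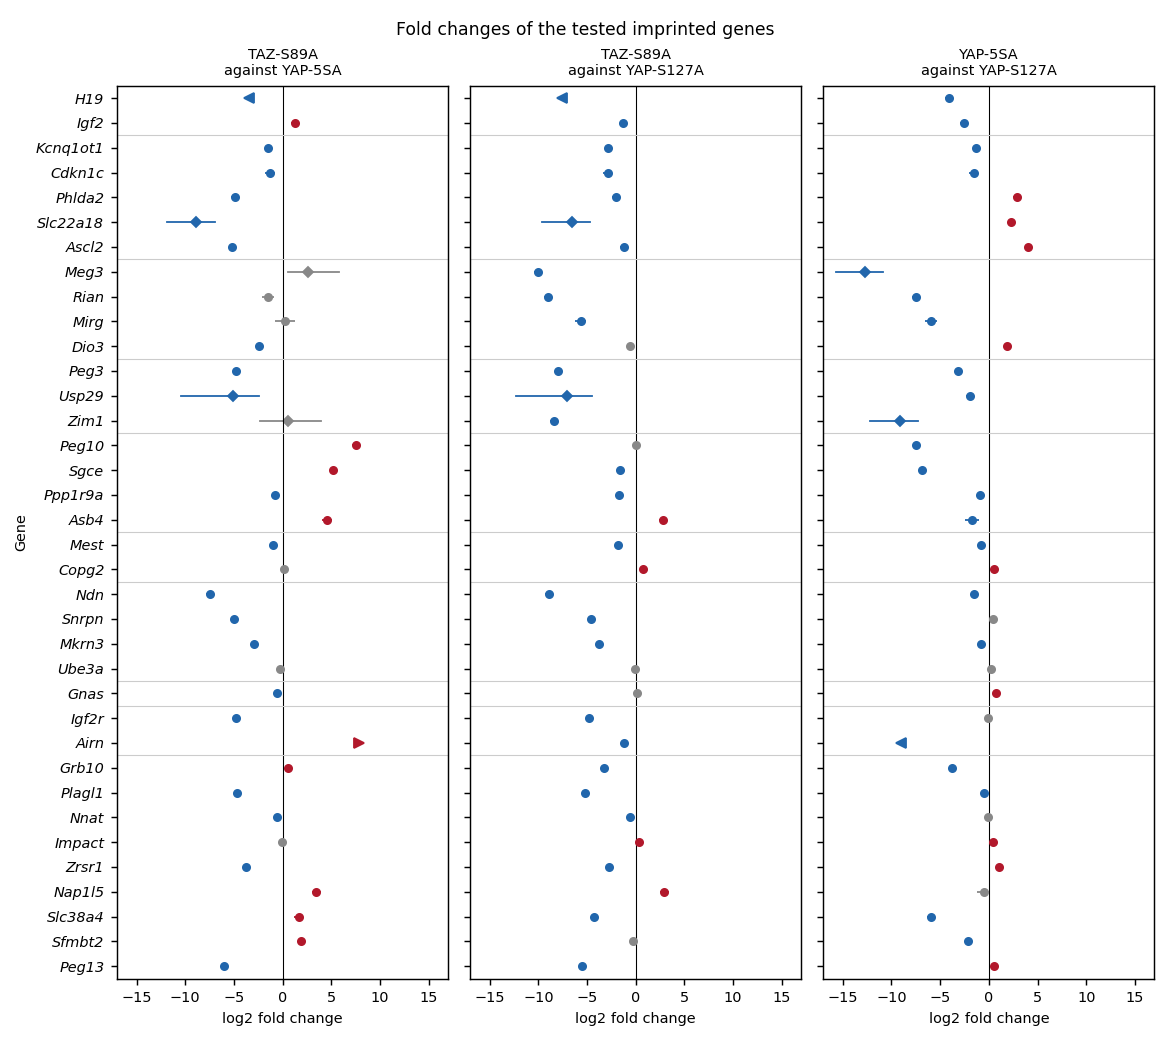
Log2 fold change of the 36 tested imprinted genes in each comparison, with genes down the page by domain. Circles are fitted values with SE as bars, triangles are lower bounds where a group had no counts, and diamonds are ratios of pooled counts with a 95% counting interval where a group held 1 to 3 counts. Red marks genes called higher, blue lower and grey not called. The middle panel holds 27 blue and 4 red points.

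The Igf2r domain on chromosome 17 gave each group a different state of its gene pair. Igf2r (Entrez gene 16004, chr17:12682406-12769706, minus strand) encodes the receptor that takes IGF2 to the lysosome for breakdown and is expressed from the maternal copy. Airn (Entrez gene 104103, chr17:12741311-12859884, plus strand) is the non-coding RNA that starts inside Igf2r, runs antisense through its promoter and silences it on the paternal copy. Both promoters are shown because the pair moved apart in these lines (RefSeq, GRCm38.p6, 250 bases before to 50 after the start, own strand). The Igf2r promoter (chr17:12769657-12769956, minus) holds 34 CpG and that of Airn (chr17:12741061-12741360, plus) 3, with a median of 7 over the 32851 promoters of the table.
Igf2r: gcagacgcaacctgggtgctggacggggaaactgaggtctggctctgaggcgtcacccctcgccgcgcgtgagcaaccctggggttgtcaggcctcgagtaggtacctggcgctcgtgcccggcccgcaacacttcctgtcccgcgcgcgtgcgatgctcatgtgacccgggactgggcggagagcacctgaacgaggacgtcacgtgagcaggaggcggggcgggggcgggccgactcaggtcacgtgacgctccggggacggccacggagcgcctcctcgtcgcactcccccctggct
Airn: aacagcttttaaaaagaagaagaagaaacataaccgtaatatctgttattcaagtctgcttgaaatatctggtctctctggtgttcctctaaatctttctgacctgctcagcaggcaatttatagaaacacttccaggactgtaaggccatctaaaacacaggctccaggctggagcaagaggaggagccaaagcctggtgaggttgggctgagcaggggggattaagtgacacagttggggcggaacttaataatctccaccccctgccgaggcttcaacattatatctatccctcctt

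Igf2r stood at 2.19, 2.41, 1.62, 2.98 and 2.25 CPM in the TAZ-S89A libraries, at 64.5, 53.6 and 68.0 CPM in YAP-5SA and at 68.4, 64.9 and 58.2 CPM in YAP-S127A. All TAZ-S89A libraries were far below all others, and the YAP groups overlapped. Igf2r fell in TAZ-S89A, by 4.77 on the log2 scale against YAP-5SA (SE 0.17, adjusted p = 2.12e-11) and by 4.81 against YAP-S127A (SE 0.17, adjusted p = 2.32e-11). YAP-5SA against YAP-S127A was not called, at -0.04 on the log2 scale (SE 0.17, adjusted p = 0.853).

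Airn was at 7.01, 6.60, 3.94, 5.46 and 5.30 CPM in TAZ-S89A, at 0 in all 3 YAP-5SA libraries and at 13.8, 12.5 and 12.5 CPM in YAP-S127A. No count of Airn was found in YAP-5SA, where a floor of 3 counts over the group allows up to 0.0249 CPM. Airn was at least 234-fold higher in TAZ-S89A than in YAP-5SA (adjusted p = 4.41e-09) and at least 525-fold lower in YAP-5SA than in YAP-S127A (adjusted p = 2.59e-09). Such bounds and the counting intervals below cover counting error only. Airn was also lower in TAZ-S89A than in YAP-S127A, at -1.19 on the log2 scale (SE 0.18, adjusted p = 0.000149).

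High Igf2r thus stood beside no Airn in YAP-5SA and beside the highest Airn in YAP-S127A, and low Igf2r beside an intermediate level of Airn in TAZ-S89A. The genes overlap by 28396 bases on opposite strands and the strand setting of the counts is not given in the sources used here, so reads of the shared stretch cannot be told apart. The median fold change of all 844 tested genes on chromosome 17 was 0.95 in TAZ-S89A against YAP-5SA, 0.20 in TAZ-S89A against YAP-S127A and -0.70 in YAP-5SA against YAP-S127A, on the log2 scale. Igf2r moved against that median in TAZ-S89A. Of the 10 nearest tested genes with no place in the imprinted lists, 7 were higher and 1 lower in TAZ-S89A than in YAP-5SA.

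**Figure D3:**
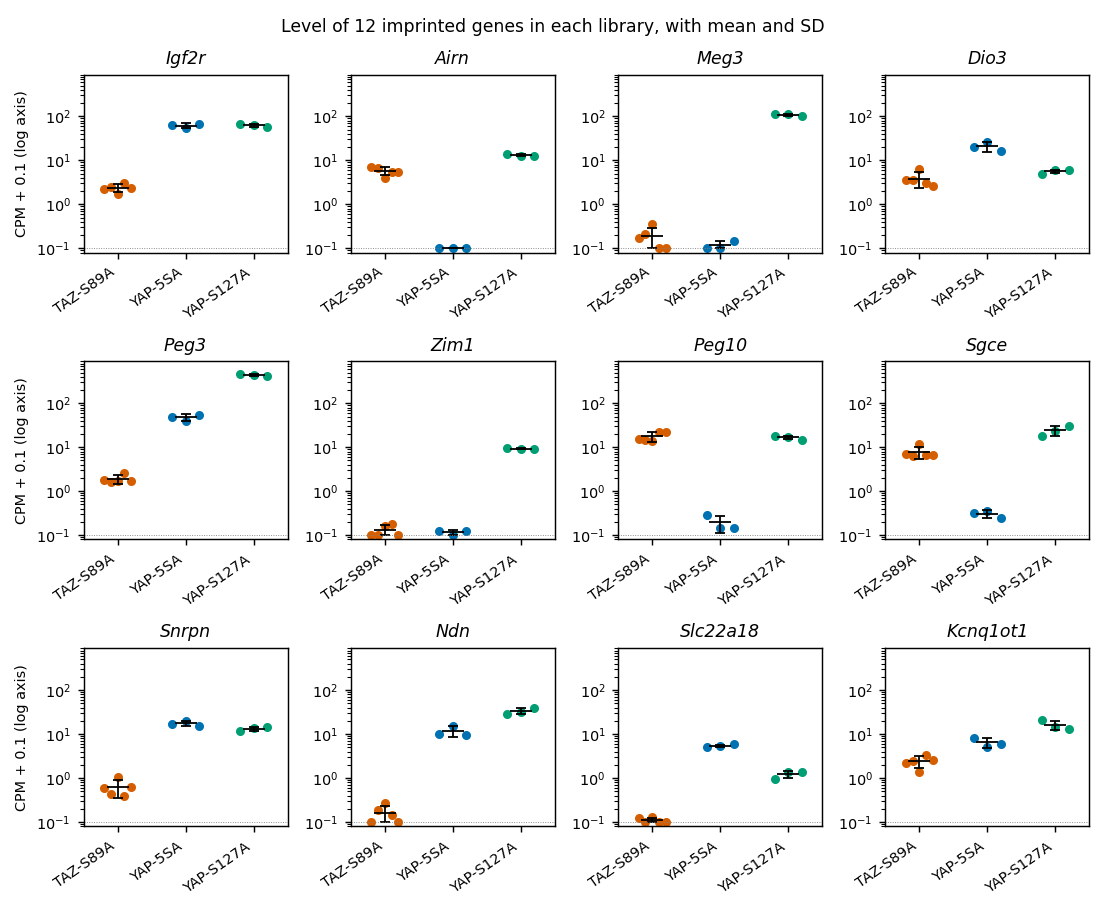
CPM of 12 imprinted genes in each library on a log axis after adding 0.1, with TAZ-S89A (orange, n = 5), YAP-5SA (blue, n = 3) and YAP-S127A (green, n = 3) from left to right. Points are libraries and black bars the mean and SD, and the dotted line marks 0 CPM. Airn lies on that line in YAP-5SA, where Igf2r averages 62.0 CPM.

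The Dlk1-Meg3 domain on chromosome 12 was active on its maternal side in YAP-S127A and near 0 there in the other groups. Meg3 (Entrez gene 17263, chr12:109540996-109571729) is the first of a row of maternally expressed non-coding RNAs, followed by Rian, a host of small nucleolar RNAs, and Mirg, a host of microRNAs. The promoter at the start of Meg3 is shown because the whole row moved with it (chr12:109540746-109541045, plus strand, 13 CpG). A second Meg3 promoter entry (chr12:109545148-109545447) holds 0 matches to the ZFP57 letters. The capitals mark the 1 match to TGCCGC, the letters that ZFP57 binds when methylated, read here on the opposite strand as GCGGCA.
Meg3: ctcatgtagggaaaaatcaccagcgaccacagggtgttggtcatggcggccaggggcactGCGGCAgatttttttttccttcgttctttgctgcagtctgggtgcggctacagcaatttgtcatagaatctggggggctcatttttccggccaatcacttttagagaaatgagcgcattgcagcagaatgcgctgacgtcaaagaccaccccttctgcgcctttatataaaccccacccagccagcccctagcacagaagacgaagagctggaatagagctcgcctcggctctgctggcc

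Meg3 held 3, 5, 9, 0 and 0 counts in the TAZ-S89A libraries and 0, 0 and 2 in YAP-5SA, against 5147, 3433 and 3653 in YAP-S127A. In CPM that was 0.0886 ± 0.107, 0.0161 ± 0.0279 and 109.6 ± 7.12. Every YAP-S127A library was above every other library by orders of magnitude. Meg3 was lower in TAZ-S89A than in YAP-S127A, at a fitted log2 value of -10.06 (SE 0.37, adjusted p = 4.19e-11). The pooled count of YAP-5SA was below that of YAP-S127A by a depth-corrected ratio of 6623 with a counting interval from 1833 to 54690 (adjusted p = 5.17e-10).

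Rian averaged 0.0722 ± 0.0720 CPM in TAZ-S89A, 0.236 ± 0.210 in YAP-5SA and 42.6 ± 4.66 in YAP-S127A. On the log2 scale the change was -8.97 in TAZ-S89A against YAP-S127A (SE 0.40, adjusted p = 2.57e-10) and -7.45 in YAP-5SA against YAP-S127A (SE 0.43, adjusted p = 6.07e-09). Mirg averaged 0.0360, 0.0356 and 2.23 CPM, and its log2 fold changes in the same comparisons were -5.66 (SE 0.54, adjusted p = 7.15e-07) and -5.92 (SE 0.65, adjusted p = 3.64e-06). Between TAZ-S89A and YAP-5SA none of these RNAs was called, and none held more than 20 counts in a library of either group. Meg3 and Rian each passed there under 6 of 21 alternatives, at an adjusted p of 0.0102 to 0.037 for Meg3 and 0.0147 to 0.049 for Rian.

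Of the paternal genes of the domain, Dio3 did not share this pattern. Dio3, the deiodinase that inactivates thyroid hormone, stood at 3.44, 3.48, 6.32, 3.02 and 2.504 CPM in TAZ-S89A, at 20.3, 26.0 and 15.9 CPM in YAP-5SA and at 4.90, 5.84 and 5.83 CPM in YAP-S127A. The YAP-5SA libraries were above all others, while TAZ-S89A and YAP-S127A overlapped through TAZ-S89A replicate 3. Dio3 was higher in YAP-5SA than in YAP-S127A by 1.91 (SE 0.28, adjusted p = 6.48e-05) and lower in TAZ-S89A than in YAP-5SA, at -2.45 (SE 0.25, adjusted p = 1.15e-06), both as log2 fold changes. Against YAP-S127A the log2 fold change of TAZ-S89A was -0.55 (SE 0.26, adjusted p = 0.0822), and it passed without TAZ-S89A replicate 3 (adjusted p = 0.003). Dlk1, a Notch-family ligand made by fetal hepatoblasts, held 0, 1, 3, 1 and 2 counts in TAZ-S89A, 0, 0 and 1 in YAP-5SA and 11, 4 and 3 in YAP-S127A. Rtl1, a retrotransposon-derived gene needed in placenta, held 0 to 1, 0 and 0 to 11 counts and lies antisense to part of Meg3 and Rian. Both had their highest mean in YAP-S127A, at 0.1532 CPM for Dlk1 and 0.1465 CPM for Rtl1. Neither gene could be tested at these counts.

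Of the 10 nearest tested genes outside the imprinted lists, 3 were higher and 3 lower in TAZ-S89A than in YAP-S127A. In YAP-5SA against YAP-S127A, 2 were higher and 2 lower, with a median log2 fold change of 0.14. The lowest of these neighbours was Begain, at -3.60 in TAZ-S89A against YAP-S127A and -4.80 in YAP-5SA against YAP-S127A. It was thus low in the same groups as Meg3, Rian and Mirg.

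In the Peg3 domain at the start of chromosome 7, the main gene stood lowest in TAZ-S89A, between in YAP-5SA and highest in YAP-S127A. Peg3 (Entrez gene 18616, chr7:6703892-6730462) encodes a paternally expressed zinc finger protein, Usp29 is its paternally expressed neighbour of the deubiquitinase family, and Zim1 (Entrez gene 22776, chr7:6674444-6696540) is a zinc finger gene expressed from the maternal copy. The promoters of Peg3 (chr7:6730370-6730669, minus strand, 13 CpG) and Zim1 (chr7:6696383-6696682, minus strand, 20 CpG) are shown because genes of opposite parental origin were low together in TAZ-S89A. Capitals mark matches to the ZFP57 letters TGCCGC and to GGAATG, the core bound by TEAD factors, the DNA-binding partners of YAP and TAZ, on either strand. In Zim1 the matches share bases.
Peg3: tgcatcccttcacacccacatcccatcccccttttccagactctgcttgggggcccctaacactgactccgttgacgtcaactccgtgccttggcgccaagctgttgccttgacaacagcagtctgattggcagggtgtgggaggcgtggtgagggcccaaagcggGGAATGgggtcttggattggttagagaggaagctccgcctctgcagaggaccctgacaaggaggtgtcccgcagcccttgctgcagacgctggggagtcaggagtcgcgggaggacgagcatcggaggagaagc
Zim1: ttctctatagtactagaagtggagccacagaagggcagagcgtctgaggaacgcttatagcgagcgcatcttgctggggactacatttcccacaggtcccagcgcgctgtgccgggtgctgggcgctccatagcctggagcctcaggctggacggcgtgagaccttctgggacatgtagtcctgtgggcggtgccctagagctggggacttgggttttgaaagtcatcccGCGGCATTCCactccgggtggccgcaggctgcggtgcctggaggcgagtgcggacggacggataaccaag

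Peg3 stood at 1.72, 1.54, 1.60, 2.49 and 1.59 CPM in TAZ-S89A, at 49.5, 38.6 and 54.7 CPM in YAP-5SA and at 465, 446 and 410.4 CPM in YAP-S127A. No group overlapped another. The log2 fold change was -4.74 in TAZ-S89A against YAP-5SA (SE 0.19, adjusted p = 7.11e-11), -7.96 in TAZ-S89A against YAP-S127A (SE 0.21, adjusted p = 2.55e-12) and -3.21 in YAP-5SA against YAP-S127A (SE 0.21, adjusted p = 1.89e-08). Per length, Peg3 was the most abundant of the 40 genes in YAP-S127A at 54.6 ± 3.995 nRPKM, against 28.4 ± 0.823 nRPKM of Gnas. Peg3os, which overlaps Peg3 by 865 bases, averaged 0.248, 5.59 and 54.4 CPM, and its reads cannot be told apart from those of Peg3 in the shared stretch.

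Zim1 held 0, 0, 2, 2 and 0 counts in TAZ-S89A and 1, 0 and 1 in YAP-5SA, against 435, 282 and 318 in YAP-S127A. It was near 0 in the TAZ-S89A and YAP-5SA libraries alike. Its log2 fold change in TAZ-S89A against YAP-S127A was -8.42 (SE 0.41, adjusted p = 7.68e-10), and YAP-5SA was below YAP-S127A by a ratio of 560.3 with a counting interval from 155 to 4633 (adjusted p = 7.18e-09). Usp29 held 0, 0, 0, 0 and 1 counts in TAZ-S89A, 11, 3 and 10 in YAP-5SA and 32, 24 and 29 in YAP-S127A. TAZ-S89A was below YAP-5SA by a ratio of 33.9 (interval 5.53 to 1393, adjusted p = 0.000405) and below YAP-S127A by 129.9 (interval 22.7 to 5192, adjusted p = 2.12e-06). Of the 10 neighbours of the domain, none was higher in TAZ-S89A, with 3 lower against YAP-5SA and 4 lower against YAP-S127A. Zfp583 was the lowest of them against YAP-S127A, at -5.12 in TAZ-S89A and -6.06 in YAP-5SA on the log2 scale.

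In the Peg10 domain on chromosome 6, Peg10 and Sgce were near 0 in YAP-5SA alone. Asb4 was low in both YAP groups, and the fourth gene, Ppp1r9a, was near 0 in no group. Peg10 (Entrez gene 170676, chr6:4747306-4760517), a retrotransposon-derived gene needed for the placenta, and Sgce (chr6:4674350-4747204), which encodes epsilon-sarcoglycan, start head to head and are both expressed from the paternal copy. Peg10 stood at 15.4, 14.8, 13.5, 22.2 and 21.8 CPM in TAZ-S89A, at 0.187, 0.0478 and 0.0484 CPM in YAP-5SA and at 17.7, 17.4 and 14.8 CPM in YAP-S127A. The YAP-5SA libraries were far below the rest, and TAZ-S89A and YAP-S127A overlapped. Peg10 was higher in TAZ-S89A than in YAP-5SA by 7.53 (SE 0.37, adjusted p = 5.48e-10) and lower in YAP-5SA than in YAP-S127A, at -7.45 (SE 0.37, adjusted p = 1.62e-09), as log2 fold changes. Between TAZ-S89A and YAP-S127A the value was 0.08 (SE 0.21, adjusted p = 0.77).

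Sgce followed with 7.05, 6.40, 12, 6.52 and 6.55 CPM in TAZ-S89A, 0.214, 0.263 and 0.145 CPM in YAP-5SA and 18.2, 23.4 and 30.5 CPM in YAP-S127A. No group overlapped another. Its log2 fold change was 5.20 in TAZ-S89A against YAP-5SA (SE 0.35, adjusted p = 1.85e-08), -1.64 in TAZ-S89A against YAP-S127A (SE 0.22, adjusted p = 2.45e-05) and -6.83 in YAP-5SA against YAP-S127A (SE 0.37, adjusted p = 3.18e-09).

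Asb4, a maternally expressed gene for a SOCS-box protein, was one of the 4 genes highest in TAZ-S89A, with 1.60 ± 0.547 CPM there, 0.0642 ± 0.0609 in YAP-5SA and 0.223 ± 0.1004 in YAP-S127A. It was higher in TAZ-S89A by 4.54 against YAP-5SA (SE 0.53, adjusted p = 5.85e-06) and by 2.79 against YAP-S127A (SE 0.44, adjusted p = 0.000102), as log2 fold changes. YAP-5SA was called lower than YAP-S127A, at -1.75 (SE 0.70, adjusted p = 0.0467). That call was lost under 6 alternatives (adjusted p from 0.0547 to 0.21). Ppp1r9a, the neurabin gene, was at 5.11 ± 1.01, 9.15 ± 0.698 and 17.04 ± 1.16 CPM in TAZ-S89A, YAP-5SA and YAP-S127A and was called in all 3 comparisons, with fold changes from -0.83 to -1.73 on the log2 scale.

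The nearest tested gene on the Sgce side outside the imprinted lists was Col1a2, a collagen gene of fibroblasts, which is named here after its values were seen. It averaged 2219 ± 767 CPM in TAZ-S89A, 16.2 ± 1.56 in YAP-5SA and 2273 ± 117 in YAP-S127A, low in the same group as Peg10 and Sgce. Casd1, an imprinted-list gene that is not among the 40, lies between Col1a2 and Sgce and averaged 2.14, 4.70 and 16.0 CPM, so it was not lowest in YAP-5SA. Col1a2 is also 1 of 5 stellate and fibroblast markers, and the others did not all follow it. Pdgfrb was low in YAP-5SA, with 268 CPM in TAZ-S89A, 1.12 CPM in YAP-5SA and 474 CPM in YAP-S127A. Col1a1 was lowest in TAZ-S89A, with 31.0, 322 and 2949 CPM in the same order of groups. Des stood at 0.0807, 0.342 and 0.133 CPM, and Lrat held at most 2 counts in a library. The part of these markers in the Peg10 and Sgce result was not tested.

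**Figure D4:**
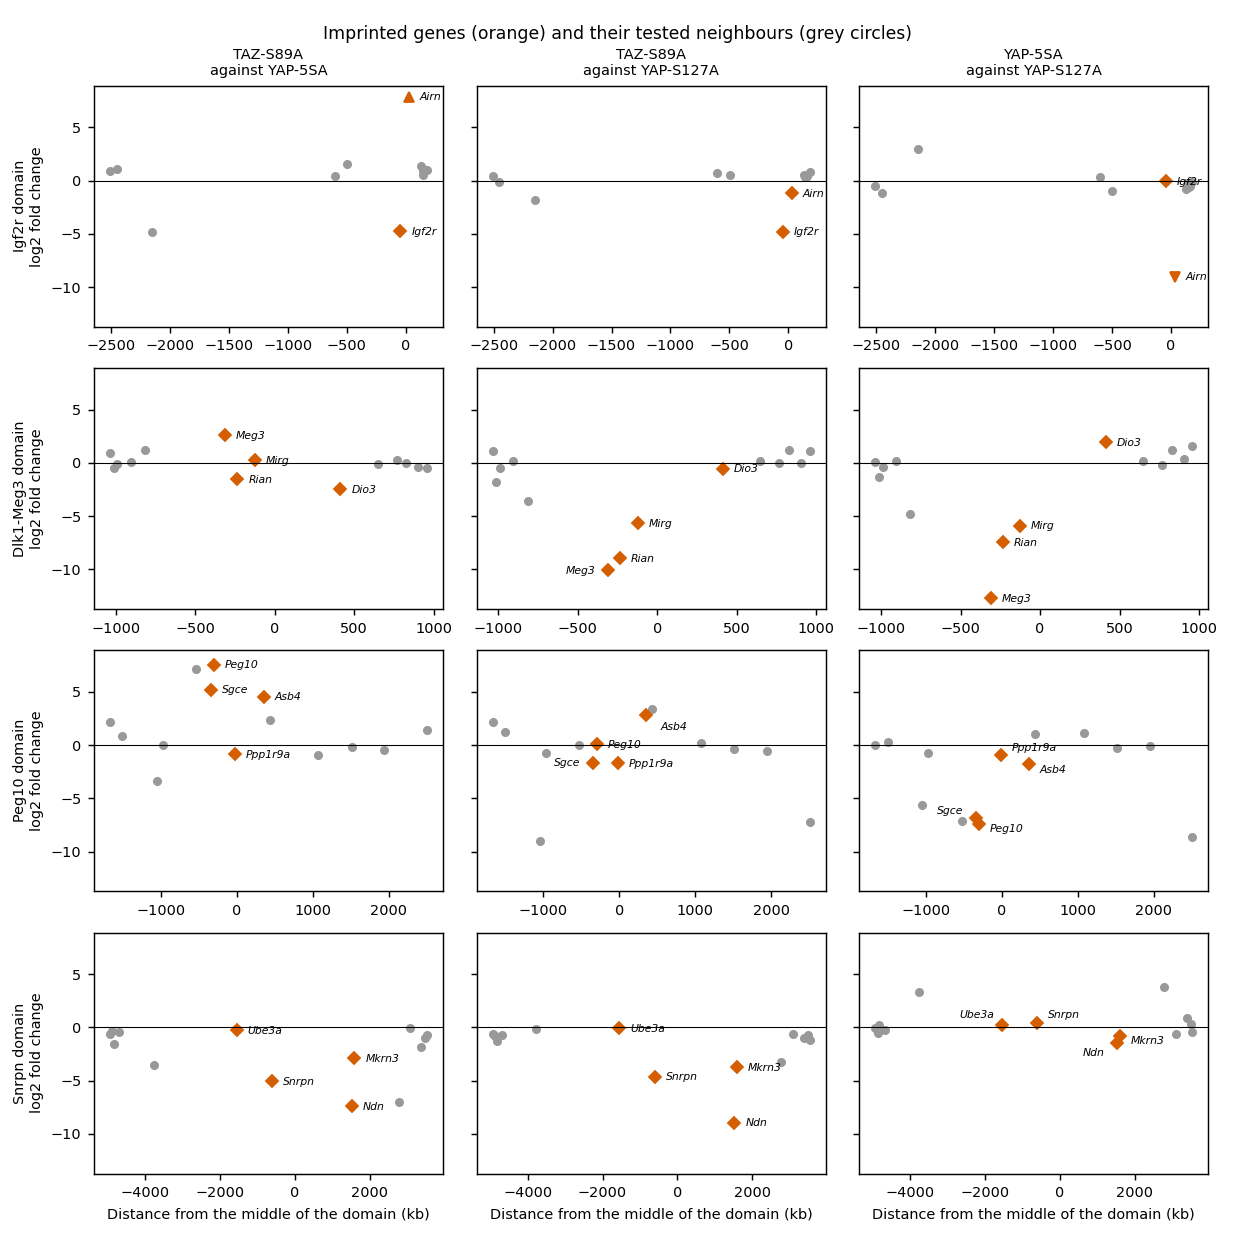
Log2 fold changes of imprinted genes (orange) and of the 5 nearest tested genes on each side that are in no imprinted list (grey), against distance in kb from the middle of 4 domains, with 1 column per comparison. Diamonds are fitted values or ratios of pooled counts and triangles are bounds against a group with no counts. Meg3, Rian and Mirg lie below their neighbours in both comparisons with YAP-S127A. The lowest of those neighbours, Begain, is at -3.60 and -4.80. A grey point beside Peg10 and Sgce, Col1a2, lies with them at 7.10 and -7.13 in the comparisons with YAP-5SA.

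In the Snrpn domain, the region affected in Prader-Willi syndrome, the paternal genes Snrpn, Ndn and Mkrn3 were low in TAZ-S89A. Snrpn (Entrez gene 20646, chr7:59982495-60450177) encodes the spliceosomal protein SmN, Ndn encodes the MAGE-family protein necdin, and Mkrn3 a makorin ring finger protein. The downstream promoter of Snrpn (chr7:60005150-60005449, minus strand, 7 CpG) is shown because it holds 1 match to the ZFP57 letters and 3 to the TEAD core, all in capitals. It was picked for these matches, and the other Snrpn promoter entries hold 0 of either.
Snrpn: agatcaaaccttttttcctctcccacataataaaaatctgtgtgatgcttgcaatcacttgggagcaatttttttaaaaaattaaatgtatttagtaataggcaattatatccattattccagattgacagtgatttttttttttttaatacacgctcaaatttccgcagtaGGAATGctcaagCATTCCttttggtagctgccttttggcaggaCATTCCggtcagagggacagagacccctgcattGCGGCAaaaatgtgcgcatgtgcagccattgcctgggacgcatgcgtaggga

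Snrpn stood at 0.495, 0.334, 0.986, 0.285 and 0.543 CPM in TAZ-S89A, at 16.8, 20.2 and 15.3 CPM in YAP-5SA and at 11.7, 13.9 and 14.4 CPM in YAP-S127A. TAZ-S89A was below both YAP groups in every library, and the YAP groups did not overlap. On the log2 scale the change was -5.03 in TAZ-S89A against YAP-5SA (SE 0.26, adjusted p = 1.23e-09) and -4.64 against YAP-S127A (SE 0.26, adjusted p = 3.51e-09). Between the YAP groups it was 0.39 (SE 0.25, adjusted p = 0.197), not called. Snurf, which shares its transcript, had nearly the same counts, and Snhg14, which overlaps Snrpn and runs on to Ube3a, averaged 0.548, 8.16 and 18.3 CPM.

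Ndn stood at 0, 0.0891, 0.174, 0.0408 and 0 CPM in TAZ-S89A, at 10.02, 15.5 and 9.46 CPM in YAP-5SA and at 28.4, 32.5 and 39.0 CPM in YAP-S127A. No group overlapped another. The log2 fold change of TAZ-S89A was -7.42 against YAP-5SA (SE 0.40, adjusted p = 1.61e-09) and -8.94 against YAP-S127A (SE 0.39, adjusted p = 2.38e-10), and that of YAP-5SA against YAP-S127A was -1.51 (SE 0.29, adjusted p = 0.000478). Mkrn3 averaged 0.665 ± 0.122, 4.87 ± 0.988 and 8.74 ± 0.136 CPM in the same order of groups. It was called in all 3 comparisons, at -2.89, -3.73 and -0.85 on the log2 scale. Magel2, the other MAGE gene of the domain, held 13 counts in TAZ-S89A replicate 1 and at most 1 in each other library.

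Ube3a, the ubiquitin ligase gene of the domain, is maternally expressed in neurons and expressed from both copies elsewhere. It averaged 40.7 ± 8.68, 49.4 ± 4.61 and 42.8 ± 2.06 CPM in TAZ-S89A, YAP-5SA and YAP-S127A. With all libraries no comparison called it, at log2 fold changes of -0.28, -0.07 and 0.21 (SE 0.16, 0.16 and 0.18). TAZ-S89A replicates 4 and 5 carry sample IDs of a second number series, and with that series as a covariate or left out Ube3a was called in both comparisons of TAZ-S89A (adjusted p from 0.00162 to 0.0465). Chromosome 7 as a whole was lower in TAZ-S89A, with a median log2 fold change over 1248 tested genes of -0.54 against YAP-5SA and -0.70 against YAP-S127A. Of the 10 neighbours of the Snrpn domain, 7 were lower and 0 higher against YAP-5SA, and 9 lower and 0 higher against YAP-S127A, with medians of -0.88 and -0.80. The changes of Snrpn, Ndn and Mkrn3 were several times those medians on the log2 scale.

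In the Kcnq1 domain at the far end of chromosome 7, all 5 tested genes were called lower in TAZ-S89A in both comparisons. The calls of Ascl2 against YAP-S127A (log2 fold change -1.20) and of Cdkn1c against YAP-5SA (-1.30) were each lost under 10 alternatives. The surroundings were low in TAZ-S89A too. Of the 10 neighbours of the domain, 6 were lower and 2 higher in each comparison, with median log2 fold changes of -0.71 against YAP-5SA and -0.92 against YAP-S127A. Slc22a18 (Entrez gene 18400, chr7:143473726-143499334), a membrane transporter gene expressed from the maternal copy, held 1, 0, 1, 0 and 0 counts in TAZ-S89A, 192, 224 and 236 in YAP-5SA and 39, 38 and 45 in YAP-S127A. It was near 0 in TAZ-S89A and highest in YAP-5SA, with no overlap. TAZ-S89A was below YAP-5SA by a ratio of 460.3 (interval 126.9 to 3809, adjusted p = 1.83e-10) and below YAP-S127A by 93.3 (interval 25.3 to 779, adjusted p = 3.44e-08), and YAP-5SA was above YAP-S127A by 2.27 on the log2 scale (SE 0.25, adjusted p = 3.21e-06).

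Phlda2, a maternally expressed gene that restrains growth of the placenta, stood at 0.260, 0.223, 0.0290, 0.285 and 0.167 CPM in TAZ-S89A, at 5.51, 7.86 and 4.09 CPM in YAP-5SA and at 0.891, 0.492 and 0.917 CPM in YAP-S127A. The groups kept the same order as for Slc22a18. Its log2 fold change was -4.89 in TAZ-S89A against YAP-5SA (SE 0.37, adjusted p = 5.51e-08), -1.99 in TAZ-S89A against YAP-S127A (SE 0.42, adjusted p = 0.00119) and 2.90 in YAP-5SA against YAP-S127A (SE 0.37, adjusted p = 1.51e-05). Ascl2, a transcription factor of trophoblast and intestinal stem cells, averaged 0.0730 ± 0.0425, 2.87 ± 0.206 and 0.179 ± 0.0346 CPM in TAZ-S89A, YAP-5SA and YAP-S127A. YAP-5SA was higher than YAP-S127A by 3.98 on the log2 scale (SE 0.31, adjusted p = 1.04e-07). The lower level in TAZ-S89A than in YAP-S127A (adjusted p = 0.0283) had an adjusted p of 0.0501 to 0.112 under the alternatives that lost it.

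Kcnq1ot1, the paternally expressed antisense RNA that silences the domain, and Cdkn1c, which encodes the cell cycle inhibitor p57, were highest in YAP-S127A. Kcnq1ot1 was at 2.08, 2.41, 1.25, 3.26 and 2.46 CPM in TAZ-S89A, at 8.23, 5.04 and 5.95 CPM in YAP-5SA and at 20.6, 14.7 and 13.3 CPM in YAP-S127A, with no overlap between groups. On the log2 scale the change was -1.50 in TAZ-S89A against YAP-5SA (SE 0.26, adjusted p = 0.000187), -2.83 in TAZ-S89A against YAP-S127A (SE 0.25, adjusted p = 3.9e-07) and -1.34 in YAP-5SA against YAP-S127A (SE 0.28, adjusted p = 0.00104). Cdkn1c averaged 0.267 ± 0.210, 0.587 ± 0.0722 and 1.75 ± 0.457 CPM. It was called lower in TAZ-S89A against YAP-5SA (adjusted p = 0.041) and against YAP-S127A (adjusted p = 0.000116), and in YAP-5SA against YAP-S127A (adjusted p = 0.0113). The first of these calls was lost at an adjusted p from 0.0506 to 0.114, and the last without YAP-S127A replicate 3 (adjusted p = 0.0533). Kcnq1 itself, over which Kcnq1ot1 runs for 83437 bases, held 0 to 1 counts in TAZ-S89A, 5 to 19 in YAP-5SA and 11 to 17 in YAP-S127A.

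The Igf2-H19 domain nearby was low in all groups. H19 (Entrez gene 14955, chr7:142575530-142578146), the maternally expressed RNA abundant in fetal liver, held 0 counts in all 5 TAZ-S89A libraries, 11, 5 and 7 in YAP-5SA and 142, 114 and 121 in YAP-S127A. It was at least 10.8-fold lower in TAZ-S89A than in YAP-5SA (adjusted p = 0.000209) and at least 192-fold lower than in YAP-S127A (adjusted p = 1.12e-07). YAP-5SA was below YAP-S127A, at -4.13 on the log2 scale (SE 0.34, adjusted p = 4.04e-06). The microRNA gene Mir675, cut from H19, held 0 counts in TAZ-S89A and in YAP-5SA and 12, 3 and 17 in YAP-S127A. PolyA RNA holds fragments of the host and does not measure mature microRNAs. The mature sequences, with the seed (bases 2 to 8) in capitals, are given because they lie within counted H19 sequence (RefSeq, GRCm38.p6, chr7:142577112-142577133 and chr7:142577078-142577099, minus strand).
mmu-miR-675-5p: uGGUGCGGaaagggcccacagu
mmu-miR-675-3p: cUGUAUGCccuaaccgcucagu

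Igf2, the paternally expressed fetal growth factor, stood at 0.448, 0.602, 0.522, 0.530 and 0.668 CPM in TAZ-S89A, at 0.428, 0.0956 and 0.169 CPM in YAP-5SA and at 1.32, 1.51 and 1.17 CPM in YAP-S127A. No group overlapped another, though the lowest TAZ-S89A and highest YAP-5SA libraries were close. Igf2 was higher in TAZ-S89A than in YAP-5SA by 1.27 (SE 0.39, adjusted p = 0.0124) and lower than in YAP-S127A, at -1.27 (SE 0.31, adjusted p = 0.00322), as log2 fold changes. The first call was lost without YAP-5SA replicate 2 or replicate 3 (adjusted p from 0.0557 to 0.0568). YAP-5SA was lower than YAP-S127A, at -2.53 (SE 0.39, adjusted p = 9.14e-05). Per length, Igf2 was at 0.0951, 0.0393 and 0.228 nRPKM in TAZ-S89A, YAP-5SA and YAP-S127A, and H19 at 0, 0.0606 and 1.07 nRPKM. The 10 neighbours of this domain are mostly those of the Kcnq1 domain. In TAZ-S89A, 6 were lower and 2 higher against YAP-5SA, and 6 lower and 1 higher against YAP-S127A, with medians of -0.71 and -0.92.

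Among 10 imprinted genes outside these domains, Plagl1, Peg13 and Zrsr1 were far lower in TAZ-S89A than in either YAP group, with smaller differences between the YAP groups. Plagl1 (Entrez gene 22634, chr10:13090832-13131694), a paternally expressed zinc finger regulator known to act on other imprinted genes, stood at 0.377, 0.513, 0.464, 0.734 and 0.459 CPM in TAZ-S89A, at 14.3, 9.61 and 15.2 CPM in YAP-5SA and at 18.7, 17.4 and 17.9 CPM in YAP-S127A. TAZ-S89A was below all YAP libraries. Its log2 fold change was -4.70 against YAP-5SA (SE 0.20, adjusted p = 1.79e-10) and -5.17 against YAP-S127A (SE 0.20, adjusted p = 8.55e-11). The YAP-5SA value against YAP-S127A, -0.47 (SE 0.19), sat at the threshold (adjusted p = 0.0499) and was lost under 13 alternatives. Its promoter (chr10:13090582-13090881, plus strand, 26 CpG) lies within a known imprinting control region and holds 1 match to the ZFP57 letters on the opposite strand, in capitals.
Plagl1: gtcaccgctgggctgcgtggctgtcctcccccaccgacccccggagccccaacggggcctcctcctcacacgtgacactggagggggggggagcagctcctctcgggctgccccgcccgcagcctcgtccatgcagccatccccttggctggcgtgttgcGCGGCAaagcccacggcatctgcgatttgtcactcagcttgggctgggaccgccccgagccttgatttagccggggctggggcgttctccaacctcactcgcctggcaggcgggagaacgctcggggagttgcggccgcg

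Peg13, a paternally expressed non-coding RNA inside an intron of Trappc9, stood at 0.425, 0.178, 0.145, 0.367 and 0.209 CPM in TAZ-S89A, at 17.5, 15.5 and 18.4 CPM in YAP-5SA and at 11.6, 11.8 and 12.9 CPM in YAP-S127A. TAZ-S89A was again below all YAP libraries. The log2 fold change was -6.00 against YAP-5SA (SE 0.23, adjusted p = 5.69e-11) and -5.50 against YAP-S127A (SE 0.23, adjusted p = 1.65e-10). YAP-5SA was called higher than YAP-S127A by 0.50 (SE 0.20, adjusted p = 0.0464), a call lost under 9 alternatives that include leaving out any 1 YAP library. Its host Trappc9 averaged 17.2, 46.8 and 10.2 CPM in TAZ-S89A, YAP-5SA and YAP-S127A, so it was higher in TAZ-S89A than in YAP-S127A (log2 fold change 0.76, SE 0.18, adjusted p = 0.00277) where Peg13 was lower.

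Zrsr1, a paternally expressed gene for a splicing factor inside Commd1, averaged 1.45 ± 0.368, 20.1 ± 1.26 and 9.89 ± 0.443 CPM in TAZ-S89A, YAP-5SA and YAP-S127A. On the log2 scale the change was -3.78 in TAZ-S89A against YAP-5SA (SE 0.18, adjusted p = 5.21e-10), -2.77 in TAZ-S89A against YAP-S127A (SE 0.18, adjusted p = 1.65e-08) and 1.02 in YAP-5SA against YAP-S127A (SE 0.19, adjusted p = 0.000457). The host Commd1 was called in no comparison, at 144 ± 58.9, 143 ± 33.3 and 172 ± 24.5 CPM.

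Grb10 and Slc38a4 stood out in YAP-S127A. Grb10, an adaptor that restrains insulin and IGF1 receptor signalling, was at 14.2, 12.9, 12.6, 19.1 and 17.3 CPM in TAZ-S89A, at 9.70, 10.9 and 10.2 CPM in YAP-5SA and at 151, 150.4 and 138 CPM in YAP-S127A. The YAP-S127A libraries were far above the rest. The log2 fold change was 0.57 in TAZ-S89A against YAP-5SA (SE 0.15, adjusted p = 0.00498), -3.27 in TAZ-S89A against YAP-S127A (SE 0.14, adjusted p = 2.58e-10) and -3.83 in YAP-5SA against YAP-S127A (SE 0.18, adjusted p = 8.92e-10). The predicted gene LOC102631979 overlaps Grb10 and averaged 3.13, 1.68 and 52.0 CPM. Slc38a4, an amino acid transporter gene of liver and placenta, averaged 0.580 ± 0.371, 0.174 ± 0.0176 and 10.99 ± 1.42 CPM in TAZ-S89A, YAP-5SA and YAP-S127A. Its log2 fold change was 1.63 in TAZ-S89A against YAP-5SA (SE 0.46, adjusted p = 0.00709), -4.32 in TAZ-S89A against YAP-S127A (SE 0.31, adjusted p = 3.44e-08) and -5.95 in YAP-5SA against YAP-S127A (SE 0.42, adjusted p = 4.82e-08).

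Nap1l5, a paternally expressed gene of the nucleosome assembly protein family, was highest in TAZ-S89A, at 1.42, 2.18, 1.25, 1.55 and 0.918 CPM, against 0.0802, 0.0478 and 0.266 CPM in YAP-5SA and 0.290, 0.0984 and 0.167 CPM in YAP-S127A. All TAZ-S89A libraries were above all others. On the log2 scale the change was 3.45 against YAP-5SA (SE 0.48, adjusted p = 3.03e-05) and 2.91 against YAP-S127A (SE 0.46, adjusted p = 9.95e-05). Nap1l5 lies inside Herc3, which averaged 71.1, 12.1 and 17.4 CPM and was likewise higher in TAZ-S89A, by 2.56 (SE 0.15, adjusted p = 4.12e-09) and 2.03 (SE 0.15, adjusted p = 4.23e-08) on the log2 scale. Whether Nap1l5 counts hold Herc3 reads was not tested. Sfmbt2, a Polycomb gene needed in placenta, averaged 5.41 ± 1.09, 1.47 ± 0.147 and 6.50 ± 0.378 CPM. It was higher in TAZ-S89A than in YAP-5SA by 1.87 (SE 0.20, adjusted p = 2.52e-06) and lower in YAP-5SA than in YAP-S127A, at -2.14 (SE 0.22, adjusted p = 1.67e-06).

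Gnas, Impact and Nnat were expressed in all groups and moved little. Gnas, the stimulatory G protein alpha subunit and the most abundant of the 40 genes per length in TAZ-S89A and YAP-5SA, averaged 461 ± 106, 681 ± 24.4 and 418 ± 7.61 CPM in TAZ-S89A, YAP-5SA and YAP-S127A. It was called lower in TAZ-S89A than in YAP-5SA (log2 fold change -0.56, SE 0.20, adjusted p = 0.03) and higher in YAP-5SA than in YAP-S127A (0.70, SE 0.23, adjusted p = 0.0199). The predicted gene Gm30189 inside Gnas held 0 to 2 counts in TAZ-S89A, 2 to 4 in YAP-5SA and 810, 526 and 615 in YAP-S127A. Impact, a regulator of the GCN2 stress kinase, averaged 114 ± 11.3, 119.9 ± 6.85 and 91.5 ± 2.65 CPM, with log2 fold changes of -0.07, 0.32 and 0.39 in the 3 comparisons. Nnat, the neuronatin gene inside Blcap, averaged 8.40 ± 2.22, 12.3 ± 2.70 and 12.7 ± 0.658 CPM, with fold changes of -0.54, -0.59 and -0.05 on the log2 scale. Every call of Gnas, Impact and Nnat was lost under at least 4 alternatives each, leaving out single YAP libraries among them.

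Copg2, a coatomer subunit gene, averaged 22.7 ± 4.20, 20.7 ± 3.21 and 13.9 ± 0.606 CPM in TAZ-S89A, YAP-5SA and YAP-S127A, and Mest, a paternally expressed gene of fetal mesoderm whose end overlaps it by 913 bases, averaged 1.23 ± 0.121, 2.38 ± 0.377 and 4.21 ± 0.212 CPM. Mest was lower in TAZ-S89A, at -0.96 against YAP-5SA (SE 0.17, adjusted p = 0.000268) and -1.78 against YAP-S127A (SE 0.17, adjusted p = 6.36e-07), as log2 fold changes. Copg2 was higher in TAZ-S89A than in YAP-S127A by 0.70 (SE 0.16, adjusted p = 0.00229). Zdbf2, whose paternal expression is set in the embryo, held 0 to 3, 1 to 3 and 2 to 5 counts in the 3 groups.

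Genes of both parental origins moved in both directions. Of 14 tested maternally expressed genes, 1 was higher and 7 lower in TAZ-S89A against YAP-5SA, 2 and 11 against YAP-S127A, and 4 and 8 in YAP-5SA against YAP-S127A. Of 20 tested paternally expressed genes, 7 and 12, 2 and 15, and 4 and 13 were higher and lower in the same comparisons. The shares called were 57.1%, 92.9% and 85.7% of the maternal genes and 95%, 85% and 85% of the paternal genes. Over all genes they were 57.9%, 57.6% and 55.2%. By direction, 26.9% of all genes were higher and 31% lower in the first comparison, 27% and 30.6% in the second, and 28.2% and 27% in the third. The 7 non-coding RNAs were all lower in TAZ-S89A than in YAP-S127A, and 6 were lower and 1 higher in YAP-5SA than in YAP-S127A. Meg3, Rian and Mirg among them lie in 1 row and are not separate cases. Genes around the domains lay nearer to the background. Over 181 neighbours, the median log2 fold change was -0.27, -0.02 and 0.21 in the 3 comparisons, and 31, 24 and 28 had an absolute value of at least 2.

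Of 33 imprinted genes with a promoter in the RefSeq table, there were 52 promoter entries. The ZFP57 letters TGCCGC, on either strand, were in 12 of them and the TEAD core GGAATG in 10, against 11.6% and 14.7% of all 32851 promoters of that length. As shares of the 52 entries these are 23.1% and 19.2%. Some entries overlap and share matches, as within Mest and between Peg3 and Usp29, so the entries are not separate promoters. The shares were not matched for CpG, and TGCCGC itself holds a CpG. A match is a run of letters and not a measured binding site. The imprinted promoters held a median of 13 CpG, against 7 in all promoters.

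Other imprinted genes, from a further list of 40 of which 29 were tested, also moved in both directions. In TAZ-S89A against YAP-5SA 2 were higher and 19 lower, in TAZ-S89A against YAP-S127A 6 and 14, and in YAP-5SA against YAP-S127A 11 and 7, with medians of -0.86, -0.32 and 0.35 on the log2 scale. That is 72.4%, 69.0% and 62.1% called, against 57.9%, 57.6% and 55.2% of all genes. Phactr2, the neighbour of Plagl1, averaged 0.491 ± 0.224, 46.3 ± 6.90 and 30.9 ± 4.11 CPM in TAZ-S89A, YAP-5SA and YAP-S127A. It was lower in TAZ-S89A, at -6.60 against YAP-5SA (SE 0.26, adjusted p = 5.99e-11) and -6.01 against YAP-S127A (SE 0.25, adjusted p = 1.65e-10), as log2 fold changes. Rasgrf1, an exchange factor for Ras, held 1, 2, 3, 0 and 0 counts in TAZ-S89A, 0 in YAP-5SA and 378, 229 and 248 in YAP-S127A, and was at least 309-fold lower in YAP-5SA than in YAP-S127A (adjusted p = 2.26e-08). The serotonin receptor gene Htr2a held 0 counts in every TAZ-S89A library and averaged 0.531 and 1.61 CPM in YAP-5SA and YAP-S127A.

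Genes for imprint maintenance and DNA methylation were called no more often than other genes, but in both comparisons with YAP-5SA most calls went to 1 side. Of 26 such genes, Dppa3 held 0 counts in every library, Ctcfl 1 count in the series and Dnmt3l at most 6 in a library, and none of these was tested. Of the 23 tested genes, 11 were higher and 0 lower in TAZ-S89A against YAP-5SA, 8 and 5 in TAZ-S89A against YAP-S127A, and 1 and 10 in YAP-5SA against YAP-S127A. The shares called were 47.8%, 56.5% and 47.8%, against 57.9%, 57.6% and 55.2% of all genes. By direction, 26.9% of all genes were higher and 31% lower in TAZ-S89A against YAP-5SA. In YAP-5SA against YAP-S127A 28.2% were higher and 27% lower. Zfp57 averaged 114 ± 18.2, 139.7 ± 27.8 and 339 ± 18.8 CPM in TAZ-S89A, YAP-5SA and YAP-S127A. It was lower in TAZ-S89A than in YAP-S127A, at -1.57 (SE 0.18, adjusted p = 3.81e-06) and in YAP-5SA than in YAP-S127A, at -1.28 (SE 0.20, adjusted p = 0.000114), as log2 fold changes. Tet1, which oxidises methylated cytosine, averaged 0.0779, 0.169 and 2.17 CPM and was lower in the same comparisons, at -4.77 (SE 0.37, adjusted p = 9.91e-08) and -3.68 (SE 0.39, adjusted p = 2.44e-06). Uhrf1, the partner of the maintenance methyltransferase, averaged 72.4, 29.4 and 54.2 CPM and was higher in TAZ-S89A than in YAP-5SA by 1.30 (SE 0.18, adjusted p = 3.09e-05). Smchd1, a chromatin protein needed at several imprinted clusters, averaged 96.6, 33.2 and 56.0 CPM and was higher there by 1.54 (SE 0.21, adjusted p = 2.09e-05).

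Partners of IGF2 were called at shares near those of all genes. Of 8 genes for IGF signalling and IGF2 mRNA binding, 1 was higher and 5 lower in TAZ-S89A against YAP-5SA, 1 and 4 in TAZ-S89A against YAP-S127A, and 3 and 2 in YAP-5SA against YAP-S127A. The shares called were 75%, 62.5% and 62.5%, against 57.9%, 57.6% and 55.2% of all genes. Igf1r, the receptor through which IGF2 signals, averaged 77.2, 126 and 270.2 CPM in TAZ-S89A, YAP-5SA and YAP-S127A, with -1.81 on the log2 scale in TAZ-S89A against YAP-S127A (SE 0.16, adjusted p = 4.34e-07). Igf2bp1, an oncofetal protein that binds Igf2 mRNA, averaged 39.3, 212 and 137 CPM, with -2.43 in TAZ-S89A against YAP-5SA (SE 0.15, adjusted p = 6.87e-09).

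Whether the second number series of sample IDs in TAZ-S89A marks a batch is not given in the labels. Over the 36 tested genes, its replicates 4 and 5 were both above all 3 others for 7 genes, below them for 7 and overlapped for 22. The same count was not made over all tested genes, so it does not show whether imprinted genes differ from others here.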

How the data were processed

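PolyA RNA from mouse liver cancer cell lines was sequenced in 11 libraries of 3 groups, TAZ-S89A, YAP-5SA and YAP-S127A, each library in the group its label names. Replicates were numbered in order of deposition and are not paired. The deposited tables hold raw counts of reads uniquely aligned to each Entrez gene model, per the file headers. They also hold nRPKM, which the file headers call an RPKM adjusted by size factor, computed by the authors. GSNAP and the GRCm38 build are named in the submitters' processing notes. The strand setting, the counting tool, the aligner version and the annotation release are all not given in the sources used here. Symbols, positions and promoters come from RefSeq GRCm38.p6, which matched 31049 of 36528 IDs, and the 5479 others held 2.91% of counts.

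Counts were tested with edgeR 4.0.16 in R 4.3.3 (filterByExpr by group, TMM scaling, robust quasi-likelihood fit over all 11 libraries with group as the only term). The filter kept 18224 genes and removed 18304, and p-values were adjusted by Benjamini-Hochberg over all 18224. A gene was called at an adjusted p under 0.05. CPM use the TMM-scaled totals. Against a group with 0 counts a fold is a lower bound at a floor of 3 counts over the group, and with 1 to 3 counts it is a ratio of pooled counts with a 95% counting interval. RPKM served only for levels between genes. Alternatives were DESeq2 1.42.0, limma-voom (limma 3.58.1), other scaling (upper-quartile, RLE), no or a strict low-count filter (1 CPM in 3 libraries), a fit of only the compared groups, the ID series as covariate or left out, a minimum log2 fold change of 1 in size, and each library left out. Summing the near-identical TAZ-S89A libraries was added after seeing the data, and the close YAP-S127A libraries were not summed. The analysis was tested on simulated counts.

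All 40 genes are named, with partners that overlap them, counts of genes from further lists with up to 3 called genes per list and comparison, and counts of the 5 nearest tested genes on each side. Not every gene that this rule allows from the further lists is printed. Casd1, Col1a2, Begain and Zfp583 were singled out after their values were seen. The genes and lists were chosen with earlier results of these data known.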

Additional observations from a re-analysis of the deposited data

Results flagged for a closer look

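In 8 of the 39 genes with any spread in TAZ-S89A, 1 of its 5 libraries stood apart, with a gap to the next library above 0.71 of the group's range. The limit flags about 1 in 20 groups of independent, continuous values, which these are not. Replicates 1 and 2 and replicates 4 and 5 lay close together, and a gene with its only count in 1 library is always flagged. The 8 genes therefore cannot be set against that rate. Sgce was at 12 CPM and Dio3 at 6.32 CPM in replicate 3, above the other TAZ-S89A libraries, and Ascl2 at 0.145 CPM (5 counts) in the same library. Peg3 at 2.49 CPM and Slc38a4 at 1.22 CPM were highest in replicate 4. Magel2 reached 0.307 CPM (13 counts) in replicate 1, with at most 1 count elsewhere in the series. Rtl1 and Usp29 at 0.0417 CPM in replicate 5 rest on 1 count each.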

How the results depend on the processing

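No paired analysis was possible because the replicate numbers only follow the order of deposition. Of 108 fold changes of tested imprinted genes, 34 changed call or sign under at least 1 of 22 alternatives, and the other 74 kept both. The counts of imprinted genes called moved past 1.5 times only in the higher direction. With a log2 fold change of 1 or more in size required, 2 genes were higher in TAZ-S89A against YAP-S127A in place of 4, and 5 in YAP-5SA against YAP-S127A in place of 9. That YAP-5SA count ran from 5 to 9 with each library left out, with 5 without YAP-S127A replicate 3. The counts over all genes moved with that fold limit too, to 2614 higher and 3550 lower in TAZ-S89A against YAP-5SA (4898 and 5647 without it), 2284 and 3589 in TAZ-S89A against YAP-S127A (4926 and 5579), and 3215 and 3054 in YAP-5SA against YAP-S127A (5145 and 4917). Signs turned only for fold changes that were not called. With the ID series as covariate, log2 fold changes were -0.01 for Zim1 and 0.03 for Impact in TAZ-S89A against YAP-5SA, and -0.19 for Peg10 and -0.10 for Gnas in TAZ-S89A against YAP-S127A. Without the second ID series, Impact was at 0.05, Peg10 at -0.20 and Gnas at -0.11 in those comparisons. With each library left out in turn, TAZ-S89A against YAP-5SA ran from -0.30 to 3.69 for Mirg and from -0.22 to 0.83 for Zim1, TAZ-S89A against YAP-S127A from -0.00 to 0.21 for Peg10 and from -0.13 to 0.01 for Ube3a, and YAP-5SA against YAP-S127A from -0.14 to 0.13 for Nnat and from -0.11 to 0.05 for Igf2r. The cause was not tested. Genes with few counts, such as Mirg, Zim1 and Rian in TAZ-S89A and YAP-5SA, allow no firm statement on a difference between these groups.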
